A study of Drosophila melanogaster with 4 samples.

Results

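The genes described here are the 5 core genes of the branchless fibroblast growth factor (FGF) pathway of the Drosophila trachea: bnl, btl, stumps, pnt and sty. They were chosen by symbol out of the 13946 protein-coding genes that the gene table places on assigned chromosomes, and all 5 symbols matched. What was examined is where the transcription factor Ribbon (Rib), fused to GFP, was found at these genes by chromatin immunoprecipitation and sequencing (ChIP-seq). A peak was looked for in each gene body, within 1 kb of the gene and within 20 kb of it.

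The embryos carried UAS-rib-GFP together with fkh-Gal4 (genotype fkh-GAL4::UAS-rib-GFP), or the same transgene together with sage-Gal4 (genotype sage-GAL4::UAS-rib-GFP). In both groups Rib was thus a tagged protein made in addition to the endogenous one. Both drivers are commonly employed to switch on transgenes in the salivary gland, and the chromatin came from whole embryos of stages 11 to 16. Each group is 1 immunoprecipitation with 3 collections merged, so the spread between replicates is unknown and no test between the drivers was possible.

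There were 4196 peaks for fkh-Gal4, with a median width of 122 bp, and 907 for sage-Gal4, with a median width of 102 bp. On assigned chromosomes, where every member lies, there were 3372 fkh-Gal4 and 868 sage-Gal4 peaks. The lists give positions only, so the strength of a peak and the read depth are unknown. Where a list has no peak, binding below the calling threshold remains possible. The deposited lists hold no expression values, and the labelled stage and tissue could not be checked against marker genes.

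In the trachea, the FGF ligand Branchless is secreted by groups of cells outside the tracheal placodes and attracts the tips of the growing branches. The receptor tyrosine kinase Breathless on the tracheal cells receives it, and the cytoplasmic adaptor Stumps couples the receptor to the Ras and MAP kinase cascade. The ETS transcription factor Pointed acts at the end of that cascade, and Sprouty, encoded by sty, feeds back to restrain the signal. Rib itself is needed for the movement and elongation of tracheal branches and of the salivary gland. With Rib-GFP made under drivers used for the salivary gland, the peaks cannot be read as Rib binding in tracheal cells.

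Peaks were found near 2 of the 5 genes, the ligand gene bnl and the transcription factor gene pnt. The receptor gene btl, the adaptor gene stumps and the feedback inhibitor gene sty had no peak of either driver in the gene or within 20 kb. The same was true of 50.7% of all protein-coding genes, so this split is close to that of genes at large, which were not matched for length. At the 5 genes there were 4 peaks in all, 2 in each list. At bnl the peaks of both drivers overlapped, and at pnt they lay far apart.

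**Figure D1:**
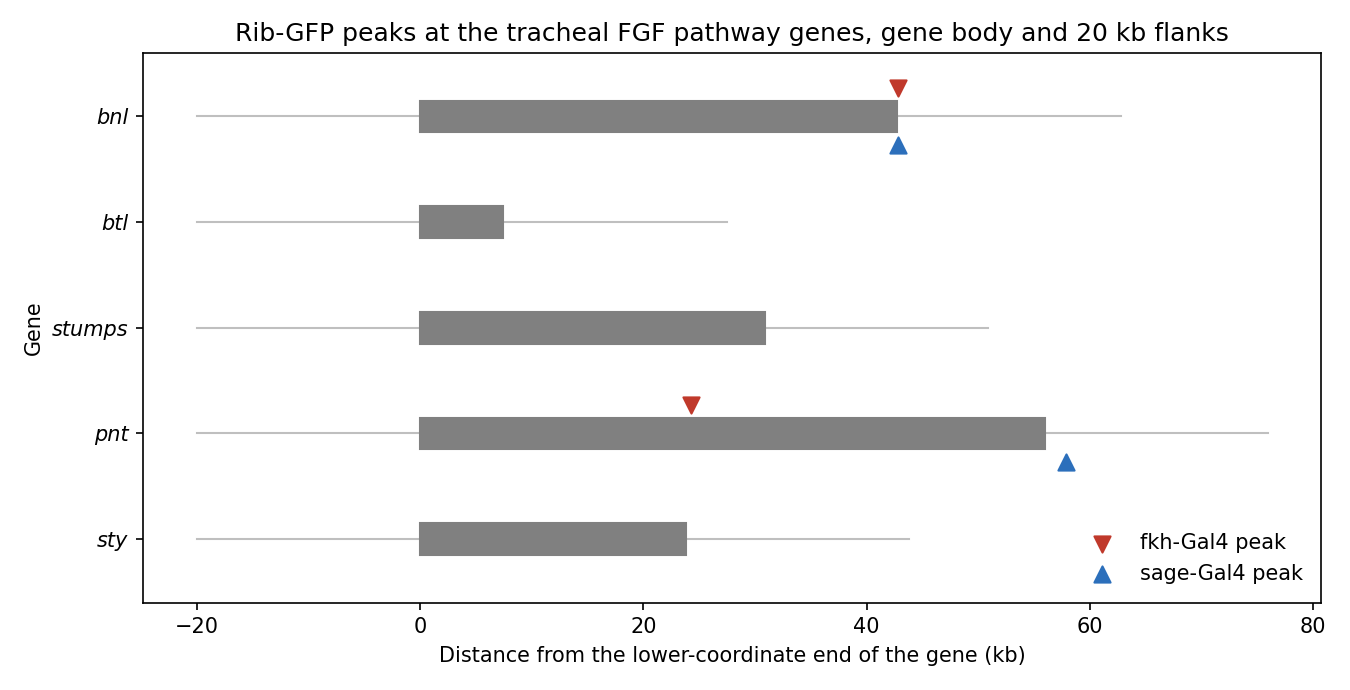
Map of the 5 genes, drawn from the lower-coordinate end of each gene at 0, with distance in kb on the x axis. Grey bars are gene bodies, thin lines the 20 kb flanks, red triangles above a gene the fkh-Gal4 peaks and blue triangles below it the sage-Gal4 peaks. Peaks of both drivers stand at one end of bnl, 1 peak of each driver stands apart at pnt, and btl, stumps and sty have none.

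The gene bnl encodes the FGF ligand and spans 42.7 kb (3R, 19794073 to 19836817, dm6). Its single fkh-Gal4 peak (3R, 19836756 to 19836929) was 174 bp wide and lay across the higher-coordinate end of the gene, with 62 bp inside the gene and 112 bp outside. Its single sage-Gal4 peak (3R, 19836862 to 19836932) was 71 bp wide and began 45 bp outside the same end. The pair overlapped by 68 bp, which is 39.1% of the fkh-Gal4 peak and 95.8% of the sage-Gal4 peak, and together they covered 177 bp. Their centres lay 54.5 bp apart. The overlap was under 50% of the wider peak, so the pair does not count as shared by a reciprocal overlap of 50%.

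No other annotated gene came close to this site. The next gene of any kind, CG31459, lay 3916 bp from the fkh-Gal4 peak. The remaining 42.7 kb of bnl, in which the tRNA gene tRNA:Thr-AGT-1-7 is nested, held no peak of either list. The gene table used gives no strand or exons, so whether this end of bnl is a promoter or a 3′ end is not stated here.

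**Figure D2:**
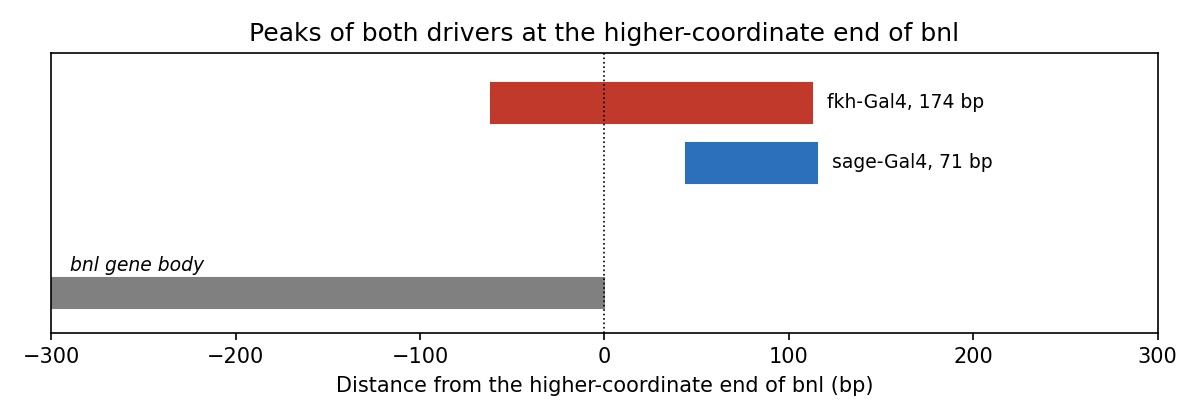
Peaks at bnl, with the distance in bp from the higher-coordinate end of the gene on the x axis. The red bar is the fkh-Gal4 peak (174 bp), the blue bar the sage-Gal4 peak (71 bp) and the grey bar the gene body. The fkh-Gal4 peak crosses the end of the gene, and the sage-Gal4 peak lies just outside it and almost wholly within the fkh-Gal4 peak.

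In width the bnl peak was moderately wide in the fkh-Gal4 list, 1.43 times the median, with 71.0% of the peaks narrower (68.8% of those on assigned chromosomes). The sage-Gal4 peak was narrow for its list, 0.696 times the median, with 18.4% of the peaks narrower (18.2% of those on assigned chromosomes). Width was the only property of a peak that the lists give besides its place.

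Few protein-coding genes had a peak near an end. A fkh-Gal4 peak lay within 1 kb of an end of 8.55% of protein-coding genes, and a sage-Gal4 peak within 1 kb of an end of 4.06%. Overlapping peaks of both drivers within 1 kb of the same end were found at 388 of 13946 genes, or 2.78%. Of the 5 FGF pathway genes, bnl alone met each of these 3 descriptions. Genes that had a peak in the body or within 1 kb mostly had one within 1 kb of an end. That was so for 1192 of 1616 such genes with fkh-Gal4 and 566 of 784 with sage-Gal4. In a gene of up to 2 kb every such peak lies within 1 kb of an end, and the median protein-coding gene was 2.16 kb long. These counts are thus set in part by gene length and cannot show a preference for gene ends. Peaks of both lists, overlapping or not, lay in the body or within 1 kb of 4.35% of genes and of 1 of the 5, again bnl. Within 20 kb they were found at 20.3% of genes and at 2 of the 5, bnl and pnt.

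The gene pnt encodes an ETS activator with several transcripts, 4 of them in the gene table, and is the longest of the 5 genes at 55.9 kb (3R, 23290231 to 23346167). Its fkh-Gal4 peak (3R, 23314483 to 23314588) was 106 bp wide, 0.869 times the list's median. It lay within the gene body, with its centre 24.3 kb from the lower-coordinate end and 31.6 kb from the higher-coordinate end. No sage-Gal4 peak overlapped the body of pnt.

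The nearest sage-Gal4 peak (3R, 23348009 to 23348109) was 101 bp wide and lay 1842 bp beyond the higher-coordinate end of pnt. It stood 19 bp from PolE1, which encodes the catalytic subunit of DNA polymerase epsilon, and so was nearer to that gene than to pnt. The fkh-Gal4 and sage-Gal4 peaks at pnt were separated by 33.4 kb. The single peak inside pnt was thus a fkh-Gal4 peak with no counterpart in the sage-Gal4 list. In the whole fkh-Gal4 list, 14.0% of the peaks had such a counterpart.

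The gene btl encodes the FGF receptor and is the shortest of the 5 at 7.46 kb (3L, 14075772 to 14083229). Its nearest fkh-Gal4 peak lay 38.7 kb below the gene, inside Hsp110, and its nearest sage-Gal4 peak lay 108 kb above it, inside nuf. Over all protein-coding genes the median distance to the nearest peak was 23.5 kb in the fkh-Gal4 list and 56.0 kb in the sage-Gal4 list. At least as far from a peak as btl were 33.8% of genes in the fkh-Gal4 list and 29.6% in the sage-Gal4 list.

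The adaptor gene stumps spans 30.9 kb (3R, 14577217 to 14608079). Its nearest peak was a single place in both lists, inside Meltrin, which encodes a metalloprotease of the ADAM family. The fkh-Gal4 peak there was 144 bp wide (3R, 14670956 to 14671099) and the sage-Gal4 peak 133 bp (3R, 14670976 to 14671108), and they overlapped by 124 bp. Both lay 62.9 kb from stumps. At least that far from a peak were 18.7% of genes in the fkh-Gal4 list and 46.7% in the sage-Gal4 list. Among the 1112 genes of 0.5 to 2 times its length 15.2% were that far in the fkh-Gal4 list and 42.6% in the sage-Gal4 list, with median distances of 11.1 kb for fkh-Gal4 and 49.0 kb for sage-Gal4.

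The gene sty encodes the inhibitor Sprouty, spans 23.8 kb (3L, 3401153 to 3424935) and holds the miRNA gene mir-2282. Its nearest fkh-Gal4 peak was an 81 bp peak 26.9 kb away, which stood 12 bp from CG12010 and 20 bp from Ythdc1. Its nearest sage-Gal4 peak was a 207 bp peak 64.2 kb away inside kst, the gene of the spectrin chain Karst. Of all genes, 45.7% were at least as far in the fkh-Gal4 list and 46.0% in the sage-Gal4 list. Among the 1332 genes of 0.5 to 2 times its length, 35.8% were that far in the fkh-Gal4 list and 42.9% in the sage-Gal4 list, with median distances of 13.5 kb for fkh-Gal4 and 49.1 kb for sage-Gal4.

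**Figure D3:**
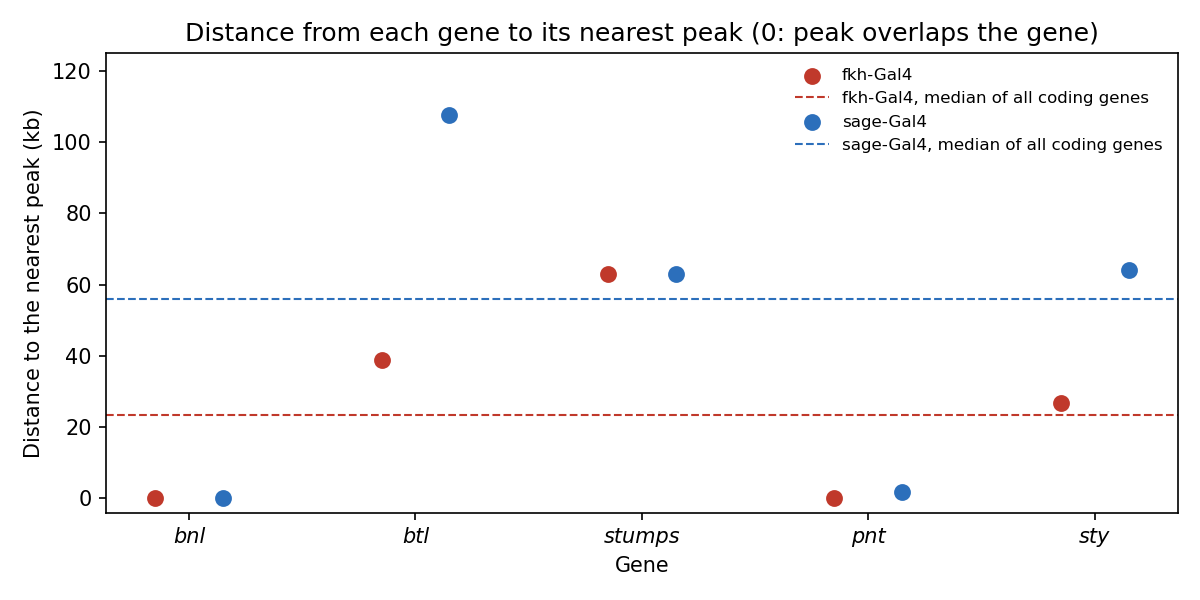
Distance in kb from each gene to its nearest fkh-Gal4 peak (red, left) and sage-Gal4 peak (blue, right), where 0 means that the peak overlaps the gene. Dashed lines are the medians over all protein-coding genes, 23.5 kb for fkh-Gal4 and 56.0 kb for sage-Gal4. The points of bnl and pnt stand near 0 in both lists, and those of btl, stumps and sty each stand above the median of their own driver.

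Counted together, 2 of 5 genes had a fkh-Gal4 peak in the gene body, against 8.15% of all protein-coding genes. With 1 kb added on each side the count was again 2 of 5, against 11.6% of all genes, and with 20 kb added it was 2 of 5, against 45.3%. In the sage-Gal4 list the counts were 0 of 5 in the gene body (3.71% of all genes), 1 of 5 within 1 kb (5.62%) and 2 of 5 within 20 kb (24.3%). The median number of peaks per gene was 0 in each window and list, both over the 5 genes and over all genes. Within 20 kb, 50.7% of all genes had no peak of either list, as did 3 of the 5 FGF pathway genes.

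The FGF pathway genes are long, and long genes meet more peaks. Their median length was 30.9 kb, against 2.16 kb for all protein-coding genes. Among the 848 genes of 21.4 to 85.5 kb, which is 0.5 to 2 times the length of bnl, 45.2% had a fkh-Gal4 peak in the body or within 1 kb and 22.5% a sage-Gal4 peak. Among the 650 genes of 28.0 to 112 kb, set in the same way around pnt, 46.2% had a fkh-Gal4 peak in the gene body. A peak somewhere in or near a gene as long as bnl or pnt was thus not rare in these lists. For genes around the length of stumps the share with a fkh-Gal4 peak in the body was 34.3%, for those around sty 28.4% and for those around btl 9.89%.

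**Figure D4:**
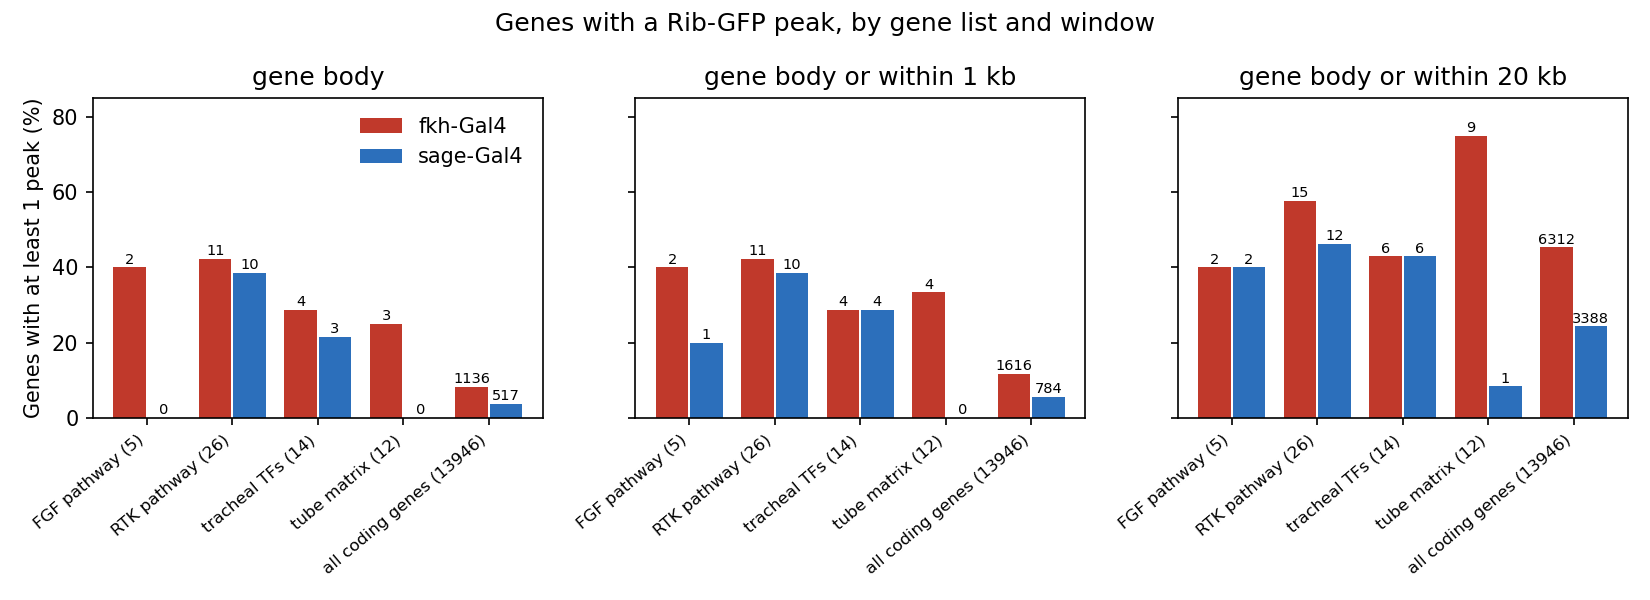
Share of genes with at least 1 peak (%, y axis) in the gene body (left), in the body or within 1 kb (middle) and in the body or within 20 kb (right), for the FGF pathway genes, other receptor tyrosine kinase (RTK) pathway genes, tracheal transcription factor genes (TFs), tube matrix genes and all protein-coding genes. Red bars are fkh-Gal4, blue bars sage-Gal4, numbers above bars count genes with a peak and numbers in brackets give the genes in each list. The FGF pathway bars stand at 40% for fkh-Gal4 in each window and reach 0%, 20% and 40% for sage-Gal4.

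Other genes of FGF and receptor tyrosine kinase signalling were looked at in the same way, 26 in number and with a median length of 15.1 kb. In the fkh-Gal4 list 11 of them had a peak in the gene body, against 20.5% of all genes of 0.5 to 2 times that median length. In the sage-Gal4 list 10 of them did, against 8.96%. The 26 genes ran from 2.51 kb (Ras85D) to 84.4 kb (ed), so a band around their median does not match the length of each. These shares were not tested. Among the other FGF genes, the ligand gene pyr had no peak within 20 kb in either list. The second ligand gene, ths, had 1 sage-Gal4 peak of 97 bp in its body and no fkh-Gal4 peak within 20 kb. The receptor gene htl had 2 fkh-Gal4 peaks within 20 kb, the nearest 5036 bp away, and no sage-Gal4 peak.

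Overlapping peaks of both drivers at a gene end, as at bnl, were found at 4 of these 26 genes, against 2.78% of all protein-coding genes. They were aop, which encodes the ETS repressor Yan that opposes Pointed, edl, which encodes a regulator of ETS factors, ed, which encodes the adhesion molecule Echinoid, and rho, which encodes a protease that releases the ligand of the EGF receptor. The aop peaks measured 99 bp in the fkh-Gal4 list (2L, 2178740 to 2178838) and 110 bp in the sage-Gal4 list (2L, 2178728 to 2178837). At edl the fkh-Gal4 peak measured 169 bp and the sage-Gal4 peak 119 bp. At ed the fkh-Gal4 peak measured 97 bp and the sage-Gal4 peak 57 bp, and at rho the fkh-Gal4 peak measured 84 bp and the sage-Gal4 peak 65 bp. In the fkh-Gal4 list the distance from the centre of the peak to the gene end was 35 bp at aop, 20 bp at edl, 17 bp at ed and 20 bp at rho. The rho peak also lay within Ptp61F.

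The other genes with peaks had no such pair. Close to a gene end, aos, which encodes the secreted EGF receptor inhibitor Argos, had a 134 bp fkh-Gal4 peak and sgl, which encodes an enzyme for the sugar precursors of proteoglycans, a 73 bp one. With sage-Gal4, csw, which encodes the phosphatase Corkscrew, had a 71 bp peak, and kek1, which encodes an inhibitor of the EGF receptor, a 126 bp one. Inside bs, which encodes the serum response factor needed for terminal tracheal branching, lay 5 fkh-Gal4 peaks of 82 to 376 bp, and the nearest sage-Gal4 peak was 36922 bp away. Further in from the gene ends, Egfr and rl had fkh-Gal4 peaks alone and vn a sage-Gal4 peak alone. Raf and spi had peaks of both lists that did not overlap. At Raf a fkh-Gal4 peak (X, 2317698 to 2317786) lay close to the sage-Gal4 peak (X, 2317529 to 2317653), with centres within 200 bp.

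Other tracheal genes were counted in the same windows, with no test against the FGF pathway genes. Of 14 tracheal transcription factor genes, 4 had a fkh-Gal4 peak in the body or within 1 kb (apt, grh, hth and rib), and 4 a sage-Gal4 peak (apt, hth, rib and salm), against 11.6% of all genes for fkh-Gal4 and 5.62% for sage-Gal4. In the gene body alone the counts were 4 for fkh-Gal4 and 3 for sage-Gal4, where genes of 0.5 to 2 times their median length of 13.0 kb gave 18.0% for fkh-Gal4 and 7.53% for sage-Gal4. Of 12 tracheal and tube matrix genes, 4 had a fkh-Gal4 peak in that window (dpy, pio, serp and uif) and 0 a sage-Gal4 peak. In the gene body alone the counts were 3 for fkh-Gal4 and 0 for sage-Gal4, where genes of 0.5 to 2 times their median length of 9.56 kb gave 13.5% for fkh-Gal4 and 5.60% for sage-Gal4. Lengths ran from 2.27 kb (esg) to 132 kb (hth) in the first list and from 1.51 kb (rtv) to 137 kb (dpy) in the second. A band around the median does not match the length of each gene. Overlapping peaks of both drivers within 1 kb of the same gene end were found at 1 of the 5 FGF pathway genes, at 0 of the 14 and at 0 of the 12. With 2.78% of all genes having such a pair, counts of 0 in lists of this size say little. The genes rib and hth held overlapping peaks of both drivers inside their bodies, farther than 1 kb from an end.

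Of the 2 fkh-Gal4 peaks within 20 kb of the FGF pathway genes, 1 was shared with the sage-Gal4 list, and in the whole fkh-Gal4 list 14.0% were shared (16.6% on assigned chromosomes). Of the 2 sage-Gal4 peaks, 1 was shared, against 67.8% of the whole sage-Gal4 list (67.7% on assigned chromosomes). With so few peaks these shares are a description. The shared peak was that at bnl in both cases.

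The number of peaks was also set beside the mean density of peaks on the chromosome arms. The 5 genes with their 20 kb flanks cover 361 kb. The fkh-Gal4 list held 21.7 peaks per Mb on 3L and 20.4 on 3R, and at these densities 361 kb would hold 7.84 or 7.38 peaks, against the 2 seen. The sage-Gal4 list held 5.79 peaks per Mb on 3L and 5.90 on 3R, at which 361 kb would hold 2.09 or 2.13 peaks, against the 2 seen. Peaks are not spread evenly along an arm, so a mean density can overstate what a typical gene meets. Genes of the lengths of these 5 had a median of 0 or 1 fkh-Gal4 peak within 20 kb. The share of the 5 with a fkh-Gal4 peak there, 2 of 5, stood near the 45.3% of all genes. It stood below the share for genes around each length. That share was 65.0% around bnl, 67.2% around pnt, 59.4% around stumps, 57.1% around sty and 47.0% around btl. In the sage-Gal4 list such shares ran from 24.8% (btl) to 38.3% (pnt), and 2 of 5 stood above each. With 5 genes these differences were not tested.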

How the data were processed

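ChIP-seq of Rib-GFP was read as 2 deposited peak lists, 1 per driver. Each deposited list has 3 columns (chromosome, start and end) and no height, score, fold or p-value. Per the submitters' processing notes, BWA, MACS2 2.1.0.20140616 and the build dm6 were used. For the peak threshold, the filters and the role of the inputs, no statement was found in the labels. The inputs were not analysed here. Depth is unknown, so no interval is given.

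Starts were changed to a 1-based count. Genes came from the RefSeq table of the same assembly (Release 6), which gives starts and ends without strand, exons or sequence. No sequence is printed for that reason, and the planned motif search and protein comparison were not run. A peak counted for a gene by an overlap of at least 1 bp. Counts were made with Python 3.11.15, pandas 2.3.3 and numpy 2.4.6, and were tested on simulated peaks. All 52 genes of the 3 other lists matched a symbol or synonym. Gap1 is given there as RasGAP1 and tdf as apt.

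The members and lists were chosen with earlier results of these data known. Every member is named with its peaks, and genes of the other lists are named where a peak lay in the body or within 1 kb. The genes pyr and htl were named beyond that rule, after their values were seen. The alternatives were peak centres, peaks at or above the median width, merging, other flanks, the nearest gene, the widest fkh-Gal4 peaks alone, and stricter rules for sharing.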

Additional observations from a re-analysis of the deposited data

How the results depend on the processing

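Counts rest on 1 or 2 genes, so a single peak moves them. In the fkh-Gal4 list the members with a peak were 2 in each window. With peaks at or above the median width alone they were 1 in each window and the peaks within 20 kb summed to 1, because the pnt peak is narrower than the median. Among the 907 widest fkh-Gal4 peaks, of at least 206 bp, every one of these counts was 0, and so was the number of shared peaks seen from either list. The gene-body count was 1 when the peak centre had to lie in the gene, since the centre of the bnl peak lies 25.5 bp outside. A 50 kb flank gave 4 members, since it reached the peak inside Hsp110, 38.7 kb from btl, and that beside CG12010, 26.9 kb from sty. The median protein-coding gene lay 23.5 kb from a fkh-Gal4 peak, so most genes have one within 50 kb. The share of all genes was not counted for that flank. In the sage-Gal4 list the peaks at or above the median width gave 0 members within 1 kb, 0 within 20 kb and 0 peaks in sum. A 2 kb flank gave 2 members in place of 1, and counting a peak only for its nearest protein-coding gene gave 1 member within 20 kb in place of 2. The bnl peaks were no longer shared by a reciprocal overlap of 50% (0 in both lists), and stayed shared by centres within 200 bp. The sage-Gal4 gene-body count is 0, so a stricter rule could not have lowered it. No paired analysis was possible because each driver has 1 merged sample. With the depth unknown, a gene without a peak cannot be called free of Rib-GFP.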
